A study of Mus musculus with 9 samples.

Results

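The genes described here belong to the unfolded protein response and the integrated stress response. They are *Atf4*, *Atf3*, *Ddit3*, *Trib3*, *Chac1*, *Asns*, *Xbp1*, *Hspa5*, *Herpud1* and *Dnajb9*, and their rows were picked by gene symbol alone from the transcript tables of 9 RNA-Seq libraries. They make up 10 of the 52459 gene symbols listed, and 36 of the 131100 transcripts. The libraries were made from NMuMG, an immortalized line of normal mouse mammary gland epithelium, grown in medium with serum and insulin. All cells had been stably transfected with a vector of the pBICEP series, in which a CMV promoter drives the insert, and were kept under G418 as pools of transfectants. The 3 mock libraries come from cells with the empty vector, the 3 EPR libraries from cells overexpressing EPR (the mouse long noncoding RNA BC030870), and the 3 EPRSTOPE libraries from cells overexpressing EPR with a stop codon at the second codon of its small open reading frame, so that the EPR-encoded peptide is not made. Comparing both overexpressing cells with mock cells asks what the RNA does, and comparing them with each other asks what the peptide adds. The study's methods call the 3 libraries of a group biological replicates, without saying whether they came from separate transfected pools, and the p-values measure the spread between these libraries.

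Both pathways answer to trouble in making proteins. Unfolded protein in the endoplasmic reticulum (ER) activates 3 sensors: IRE1, which splices *Xbp1* mRNA, ATF6, which is cut into a transcription factor, and PERK, a kinase of the translation factor eIF2. PERK and the other eIF2 kinases, which sense amino acid shortage, double-stranded RNA or heme shortage, slow translation in general while that of *Atf4* goes on, and ATF4 then raises genes for amino acid supply and for feedback. Secretory epithelia such as the mammary gland lean on the ER arm when they make milk proteins. Much of the signalling runs through phosphorylation, splicing and translation, and mRNA levels such as those below do not show these steps.

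The tables held 5972457 to 11876435 estimated counts per library. A level is given as CPM, the counts of a gene relative to the TMM-normalized size of the library, where 3 counts correspond to 0.253 to 0.502 CPM depending on the library. A gene was called higher or lower in a comparison when edgeR's quasi-likelihood test gave a Benjamini-Hochberg adjusted p under 0.01 and the log2 fold change lay beyond 0.5, and 15370 genes were tested, all 10 stress response genes among them. The overexpressed RNA itself was at 0, 0 and 0.163 CPM in the mock libraries, at 23.7, 27.0 and 23.9 CPM in the EPR libraries and at 4.74, 4.16 and 3.80 CPM in the EPRSTOPE libraries. EPR RNA was thus 5.90-fold higher in EPR than in EPRSTOPE cells, so the peptide and the amount of RNA cannot be told apart when these groups are compared. Whether each group was a single transfected pool is not stated, so differences between pools cannot be told apart from either. Epithelial markers moved with the groups as well: the summed level of 8 of them was 3693 to 4158 CPM in mock, 9502 to 10610 CPM in EPR and 10688 to 11025 CPM in EPRSTOPE libraries, and *Epcam* and *Cldn7* were at 0 in every mock library, although the line is mammary epithelium, and *Cldn7* also in every EPRSTOPE library. Of the 7 epithelial markers tested, 7 were called higher in EPR and 4 in EPRSTOPE cells. The sum of 7 mesenchymal markers was 3997 to 4171, 2142 to 2369 and 3872 to 4225 CPM in mock, EPR and EPRSTOPE libraries, with *Cxcl12* at 0 in both overexpressing groups, and 5 and 3 of the 5 tested were called lower. A sum of 8 markers of blood, vessel, nerve, muscle and fat cells stayed at 13.4 to 19.6 CPM in all libraries, with *Adgre1* and *Adipoq* at 0. The part of this shift in the stress response results was not tested, and in bulk RNA fewer cells of a type cannot be told apart from less RNA per cell.

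*Hspa5*, the most abundant of the 10 genes, and *Herpud1* gave the largest differences, and they did so in different patterns. *Herpud1* and *Dnajb9* rose in both overexpressing cells. *Hspa5* rose 1.79-fold in EPRSTOPE cells, while its level in EPR cells lay below mock. On the amino acid side *Chac1* fell in both cells, *Asns* fell in EPR cells and *Trib3* was called lower in EPRSTOPE cells. The 3 transcription factors ATF4, ATF3 and CHOP and the splicing target *Xbp1* had no called change in any comparison.

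**Figure D1:**
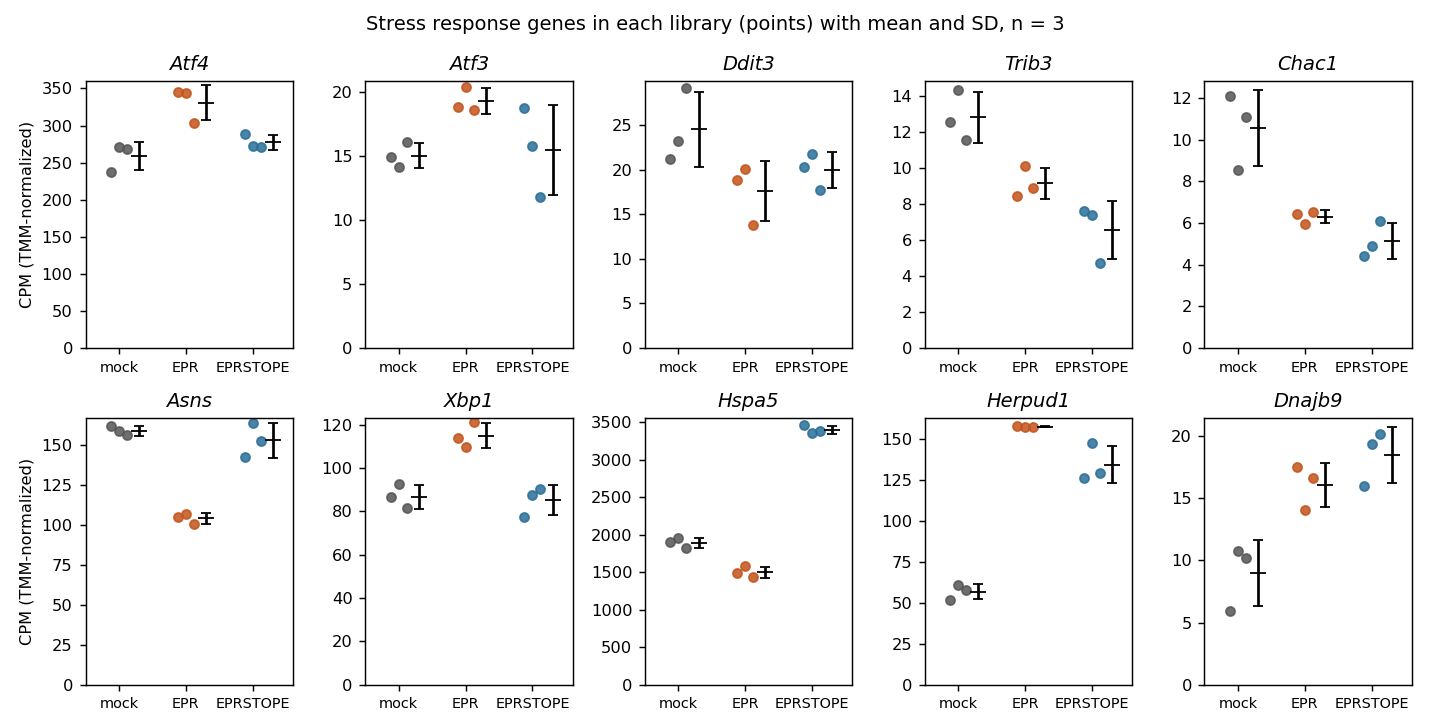
Level of each of the 10 genes in every library, in CPM after TMM normalization (vertical axis, from 0), by group; points are libraries and the bars beside them the mean and SD of 3. The EPRSTOPE libraries of Hspa5 sit between 3358 and 3456 CPM, above all others, whereas Herpud1 and Dnajb9 are above mock in both overexpressing groups and Asns is low in the EPR libraries.

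*Atf4* (ENSMUSG00000042406.7, chromosome 15 of GRCm38, 80255184 to 80257541, plus strand) encodes the transcription factor at the centre of the integrated stress response. Its level was 237, 271 and 268 CPM in the mock libraries, 345, 343 and 304 CPM in the EPR libraries and 289, 273 and 271 CPM in the EPRSTOPE libraries. The EPR libraries were all above the others, and the lowest EPRSTOPE library lay barely above the highest mock library. The log2 fold change of EPR against mock was 0.35 (SE 0.070, edgeR adjusted p = 0.0012), which passes the p threshold and not the fold limit, so it was not called. EPRSTOPE against mock gave 0.10 (SE 0.070, edgeR adjusted p = 0.27), and EPR against EPRSTOPE gave 0.25 (SE 0.070, edgeR adjusted p = 0.017).

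*Atf3* (ENSMUSG00000026628.13, chromosome 1, 191170296 to 191218039, minus strand), an early stress-induced factor of the same protein family, was at 14.9, 14.1 and 16.1 CPM in mock, 18.9, 20.5 and 18.6 CPM in EPR and 18.8, 15.8 and 11.9 CPM in EPRSTOPE libraries. The EPR libraries lay above mock without overlap, and the EPRSTOPE libraries spread over both sides of the mock range. The log2 fold change was 0.35 (SE 0.15, edgeR adjusted p = 0.067) for EPR and 0.025 (SE 0.15, edgeR adjusted p = 0.91) for EPRSTOPE against mock, and neither sign was stable, since counts scaled from TPM gave -0.099 and -0.45. The longest coding transcript of *Atf3* had 5.94 ± 0.66 TPM in mock, 8.53 ± 0.78 TPM in EPR and 6.15 ± 2.18 TPM in EPRSTOPE libraries (SD, n = 3). A transcript of 517 bases that is not listed as coding had 6.57 ± 2.87, 1.71 ± 0.94 and 1.04 ± 1.31 TPM. *Ddit3* (ENSMUSG00000025408.15, chromosome 10, 127290774 to 127296288, plus strand) encodes CHOP, the factor tied to cell death under lasting ER stress. It was at 21.1, 23.2 and 29.1 CPM in mock, 18.9, 20.1 and 13.7 CPM in EPR and 20.3, 21.8 and 17.7 CPM in EPRSTOPE libraries. All EPR libraries were below all mock libraries, with a log2 fold change of -0.50 (SE 0.16, edgeR adjusted p = 0.023) that was not called, and the EPRSTOPE libraries overlapped with mock (-0.31, SE 0.16, edgeR adjusted p = 0.14). *Ddit3* shares its span with *Mars* on the other strand, at 80.3 to 147 CPM over the 9 libraries, and without knowing the strand setting of the quantification reads of the pair cannot be told apart. The longest coding transcript of *Ddit3* had 21.1 ± 1.5 TPM in mock, 13.8 ± 1.4 TPM in EPR and 20.8 ± 4.4 TPM in EPRSTOPE libraries (SD, n = 3), and its shorter coding transcript had 17.7 ± 6.6, 7.39 ± 4.92 and 4.24 ± 1.51 TPM.

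Promoters of this arm hold a C/EBP-ATF response element (CARE), the DNA element that ATF4 dimers are known to bind. Its core, searched as TGATGNAA on both strands in RefSeq promoter windows of GRCm38.p6 that run from 250 bases before to 50 bases after each start, was found in the windows of *Asns*, *Atf3*, *Chac1*, *Herpud1* and *Trib3*, 5 of the 10 genes, against 3.97% of all 32851 windows. Of the genes that carry the core, *Herpud1* was called higher against mock. *Asns*, *Chac1* and *Trib3* were called lower in EPR cells, EPRSTOPE cells or both, and *Atf3* was not called. The sequences around the match are shown for this reason, that of *Herpud1* further below and those of *Atf3*, *Chac1* and *Asns* here. They read 5′ to 3′ on the gene's own strand with the match in capitals, which for *Atf3* and *Chac1* is the reverse complement of the core, and lie at chr1:191183416-191183463 (minus strand), chr2:119351029-119351076 (plus strand) and chr6:7693210-7693252 (minus strand).
Atf3: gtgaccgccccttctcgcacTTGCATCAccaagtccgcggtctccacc
Chac1: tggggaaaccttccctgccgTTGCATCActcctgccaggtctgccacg
Asns: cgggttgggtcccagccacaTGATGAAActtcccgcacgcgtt
Distances are counted from the RefSeq start, which can differ from the end of the Gencode span given for a gene. The match begins 110 bases before the RefSeq start in *Atf3*, 193 bases before it in *Chac1* and 23 bases before it in *Asns*. The printed stretches of *Atf3* and *Asns* lie inside the Gencode spans of these genes. The match of *Trib3* lies after its RefSeq start and is not printed. A match of letters is a description and does not show that a factor was bound.

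*Asns* (ENSMUSG00000029752.12, chromosome 6, 7675169 to 7693254, minus strand) encodes asparagine synthetase, a textbook target of ATF4. It was at 162, 159 and 156 CPM in mock, 105, 107 and 100 CPM in EPR and 142, 164 and 153 CPM in EPRSTOPE libraries. The EPR libraries stood clearly below the other 6, which overlapped with each other. *Asns* fell in EPR cells against mock with a log2 fold change of -0.61 (SE 0.063, edgeR adjusted p = 6.6e-06) and was lower than in EPRSTOPE cells by -0.56 (SE 0.063, edgeR adjusted p = 4e-05), whereas EPRSTOPE against mock gave -0.054 (SE 0.062, edgeR adjusted p = 0.51, 95% interval -0.18 to 0.068). Counts scaled from TPM ended both calls, with adjusted p of 0.016 and 0.028 in that edgeR fit, while the differences became larger (-0.76 and -0.81). In EPR cells the value of *Asns* was thus below mock and that of its known activator *Atf4* above it, without a call for *Atf4*.

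*Chac1* (ENSMUSG00000027313.3, chromosome 2, 119351229 to 119354381, plus strand) encodes an enzyme that degrades glutathione and is a marker of ATF4 and CHOP activity. It was at 12.1, 8.55 and 11.1 CPM in mock, 6.46, 5.94 and 6.54 CPM in EPR and 4.40, 4.91 and 6.10 CPM in EPRSTOPE libraries. Every overexpressing library was below every mock library, and the EPR and EPRSTOPE libraries overlapped. *Chac1* fell in EPR cells by 0.74 on the log2 scale (SE 0.19, edgeR adjusted p = 0.0062) and in EPRSTOPE cells by 1.02 (SE 0.19, edgeR adjusted p = 0.0009). The call in EPR cells was lost without mock library 203 (-0.64, edgeR adjusted p = 0.026), mock library 205 (-0.70, edgeR adjusted p = 0.026), EPR library 206 (-0.75, edgeR adjusted p = 0.019), EPR library 207 (-0.69, edgeR adjusted p = 0.024) or EPR library 208 (-0.75, edgeR adjusted p = 0.018), and with counts scaled from TPM (-0.59, edgeR adjusted p = 0.047). The EPRSTOPE call was kept under every alternative run.

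*Trib3* (ENSMUSG00000032715.9, chromosome 2, 152337422 to 152344032, minus strand) encodes a pseudokinase that is raised by ATF4 and CHOP and damps them. It was at 12.6, 14.4 and 11.6 CPM in mock, 8.47, 10.1 and 8.88 CPM in EPR and 7.62, 7.37 and 4.72 CPM in EPRSTOPE libraries. The 3 groups did not overlap, with mock highest and EPRSTOPE lowest. *Trib3* fell in EPRSTOPE cells by 0.97 on the log2 scale (SE 0.19, edgeR adjusted p = 0.0012), a call that counts scaled from TPM ended (-0.60, edgeR adjusted p = 0.083). EPR against mock gave -0.49 (SE 0.18, edgeR adjusted p = 0.044) and EPR against EPRSTOPE gave 0.48 (SE 0.20, edgeR adjusted p = 0.087), and neither was called.

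*Hspa5* (ENSMUSG00000026864.13, chromosome 2, 34771970 to 34777547, plus strand) encodes BiP, the main chaperone of the ER lumen, which also holds the 3 sensors inactive. *Herpud1* (ENSMUSG00000031770.16, chromosome 8, 94386438 to 94395377, plus strand) encodes an ER membrane protein of the degradation machinery. The promoters of both hold an ER stress response element, the DNA motif through which ATF6 and XBP1 act, but of different kinds. The element ERSE, searched as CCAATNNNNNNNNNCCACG on both strands, was found among the 10 genes in *Hspa5* alone and in 0.119% of all windows. ERSE-II, searched as ATTGGNCCACG, was found in *Herpud1* alone and in 0.0365% of all windows. The stretches are shown because these genes, with related elements, had different patterns. That of *Hspa5* lies at chr2:34772005-34772063 and that of *Herpud1* at chr8:94386297-94386407, both on the plus strand, and the capitals mark ERSE in *Hspa5*, and in *Herpud1* first the reverse complement of the CARE core and then ERSE-II.
Hspa5: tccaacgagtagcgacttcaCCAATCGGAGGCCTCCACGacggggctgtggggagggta
Herpud1: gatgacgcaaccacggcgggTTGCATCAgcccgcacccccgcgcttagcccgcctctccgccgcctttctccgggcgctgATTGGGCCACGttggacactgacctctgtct
ERSE begins 65 bases before the RefSeq start of *Hspa5*, and its stretch lies inside the Gencode span of the gene. In *Herpud1* the CARE core begins 112 and ERSE-II 52 bases before the RefSeq start. None of the searched motifs had a match in the windows of *Atf4*, *Ddit3*, *Xbp1* or *Dnajb9*, which says only that these letters are not in those windows.

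*Hspa5* was at 1904, 1951 and 1824 CPM in mock, 1489, 1579 and 1432 CPM in EPR and 3456, 3358 and 3379 CPM in EPRSTOPE libraries. The 3 groups were far apart relative to their spread, with EPR lowest and EPRSTOPE highest. *Hspa5* rose in EPRSTOPE cells against mock with a log2 fold change of 0.84 (SE 0.046, edgeR adjusted p = 2.3e-08). EPR against mock gave -0.34 (SE 0.046, edgeR adjusted p = 6.8e-05), under the fold limit and not called. EPR was lower than EPRSTOPE by -1.18 on the log2 scale (SE 0.046, edgeR adjusted p = 8.7e-09), which corresponds to a 2.27-fold higher level in EPRSTOPE cells. Leaving out single libraries kept this difference between -1.21 and -1.13. The most abundant coding transcript followed the gene in its EPRSTOPE rise, at 552 ± 95 TPM in mock, 476 ± 57 TPM in EPR and 1103 ± 204 TPM in EPRSTOPE libraries (SD, n = 3). Its mock (484 to 660 TPM) and EPR libraries (426 to 538 TPM) overlapped.

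*Herpud1* was at 52.0, 60.9 and 57.8 CPM in mock, 157.7, 157.3 and 157.7 CPM in EPR and 127, 148 and 129 CPM in EPRSTOPE libraries. Both overexpressing groups were far above mock, and the EPR libraries lay above the EPRSTOPE libraries. *Herpud1* rose 2.76-fold in EPR cells (log2 fold change 1.47, SE 0.076, edgeR adjusted p = 1.8e-08) and 2.36-fold in EPRSTOPE cells (1.24, SE 0.076, edgeR adjusted p = 6.9e-08). The difference of EPR against EPRSTOPE was 0.23 (SE 0.074, edgeR adjusted p = 0.036, 95% interval 0.083 to 0.37) and was not called. The antisense gene *Gm15890* overlaps *Herpud1* and had at most 2.71 CPM in any library.

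*Dnajb9* (ENSMUSG00000014905.4, chromosome 12, 44205559 to 44210326, minus strand) encodes ERdj4, a partner of BiP and a known target of spliced XBP1. It was at 5.90, 10.8 and 10.2 CPM in mock, 17.5, 14.0 and 16.6 CPM in EPR and 15.9, 19.3 and 20.1 CPM in EPRSTOPE libraries. Both groups lay above mock and overlapped with each other. *Dnajb9* rose in EPR cells with a log2 fold change of 0.82 (SE 0.19, edgeR adjusted p = 0.0038) and in EPRSTOPE cells with 1.02 (SE 0.19, edgeR adjusted p = 0.00089). EPR against EPRSTOPE gave -0.21 (SE 0.18, edgeR adjusted p = 0.45, 95% interval -0.57 to 0.16). The EPR call was lost without EPR library 206 (0.76, edgeR adjusted p = 0.017) or EPR library 208 (0.81, edgeR adjusted p = 0.013), and counts scaled from TPM ended it (0.53, edgeR adjusted p = 0.076) as well as the EPRSTOPE call (0.66, edgeR adjusted p = 0.034).

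*Xbp1* (ENSMUSG00000020484.18, chromosome 11, 5520659 to 5525893, plus strand) encodes the transcription factor whose mRNA IRE1 splices. It was at 86.7, 92.4 and 81.4 CPM in mock, 114, 110 and 121 CPM in EPR and 77.3, 87.8 and 90.3 CPM in EPRSTOPE libraries. The EPR libraries were above the other 6, which overlapped. EPR differed from mock by 0.40 (SE 0.075, edgeR adjusted p = 0.00074) and from EPRSTOPE by 0.43 (SE 0.075, edgeR adjusted p = 0.0011), both under the fold limit and so not called. EPRSTOPE against mock gave -0.026 (SE 0.076, edgeR adjusted p = 0.81), a value whose sign turned without mock library 204 (0.013) or EPRSTOPE library 209 (0.037). None of the 4 listed *Xbp1* transcripts lacks an internal stretch of the longest, so the spliced form was not measured, and its part in the *Dnajb9* values was not tested.

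**Figure D2:**
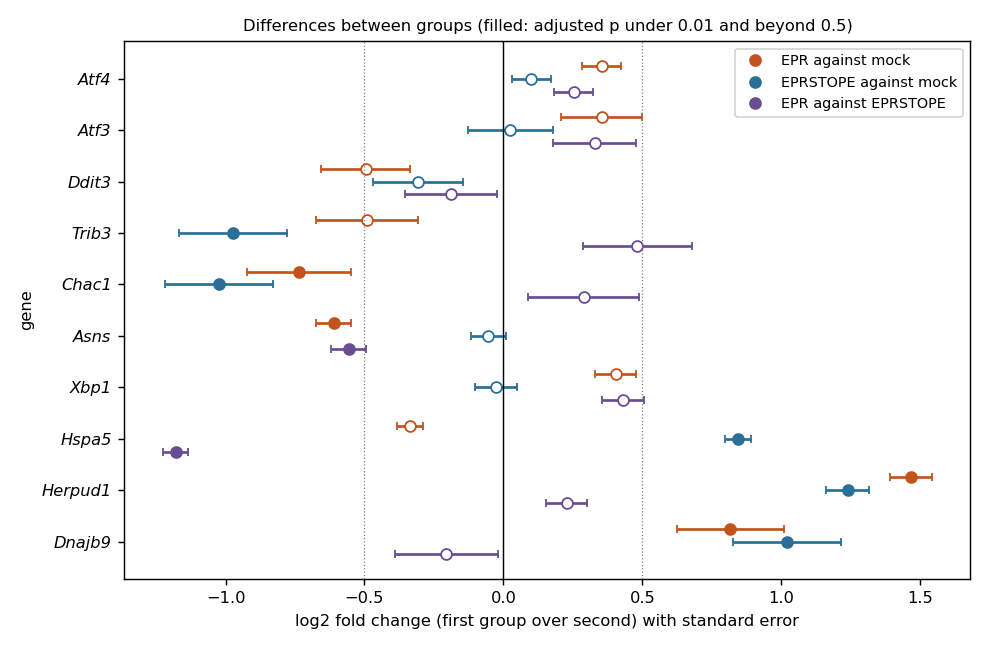
Log2 fold change of each of the 10 genes (horizontal axis, first group over second) with its standard error in the 3 comparisons; filled points were called and dotted lines mark the fold limit of 0.5. Hspa5 is the gene whose differences spread most, from -1.18 for EPR against EPRSTOPE to 0.84 for EPRSTOPE against mock.

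Over the 10 genes, EPR against mock called 2 higher (*Herpud1*, *Dnajb9*) and 2 lower (*Chac1*, *Asns*), where 28.1% of all tested genes were called, 15.2% higher and 12.9% lower. EPRSTOPE against mock called 3 higher (*Hspa5*, *Herpud1*, *Dnajb9*) and 2 lower (*Trib3*, *Chac1*), against 28.0% of all tested genes, 15.6% higher and 12.4% lower. EPR against EPRSTOPE called 0 higher and 2 lower (*Hspa5*, *Asns*), against 13.2% of all tested genes, 6.86% higher and 6.35% lower. Beside this 0 of edgeR, 5 of the 10 genes were higher at an unadjusted p under 0.05, and DESeq2 and limma with voom also called 0. At an adjusted p under 0.05 with no fold limit, edgeR called 9, 5 and 5 of the 10 genes in the 3 comparisons, against 48.7%, 48.4% and 30.2% of all tested genes, and at an unadjusted p under 0.05 it called 10, 5 and 7, against 54.2%, 53.9% and 39.8%. Over 10 genes these shares are not read as a result about the group. The libraries did not overlap for 10, 6 and 6 of the 10 genes in the 3 comparisons, against 57.8%, 56.5% and 43.0% of all tested genes. The median log2 fold change of the 10 genes was 0.0086 for EPR against mock, -0.00027 for EPRSTOPE against mock and 0.24 for EPR against EPRSTOPE, beside -0.011, -0.039 and 0.0071 over all tested genes. For a single gene, an exact permutation test of 3 libraries against 3 cannot go below a two-sided p of 0.1.

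On a scale per transcript length, the 10 genes spanned a wide range of levels. *Hspa5* had 1107 ± 201 TPM in mock, 673 ± 62 TPM in EPR and 1596 ± 156 TPM in EPRSTOPE libraries (SD, n = 3). Its most abundant coding transcript held 51.4 ± 14.7%, 70.7 ± 1.9% and 70.1 ± 17.2% of this, and the remainder lay in its other transcripts. Next was *Atf4* with 144 ± 21, 178 ± 21 and 154 ± 22 TPM. In mock libraries *Asns* followed with 115 ± 5 TPM, then *Herpud1* with 54.7 ± 2.3 TPM and *Xbp1* with 51.4 ± 6.9 TPM. The ranges of *Herpud1*, *Xbp1* and *Ddit3* overlapped in turn, as did those of *Chac1*, *Dnajb9* and *Trib3*, the lowest genes, at 5.83 to 6.22 TPM. The order was different in EPR libraries, where *Herpud1* with 109 ± 14 TPM stood above *Xbp1* with 61.5 ± 1.0 TPM and *Asns* with 59.0 ± 2.2 TPM, and the last pair overlapped. In EPRSTOPE libraries *Atf4*, *Herpud1* (107 ± 38 TPM) and *Asns* (105 ± 37 TPM) overlapped in turn.

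The other genes of the 2 pathways were taken as 7 lists with 98 genes, of which 95 were tested. EPR against mock called 26 of the 95 higher and 10 lower, where 15.2% and 12.9% of all tested genes were called. EPRSTOPE against mock called 38 higher and 8 lower, against 15.6% and 12.4% of all tested genes, and EPR against EPRSTOPE called 9 higher and 21 lower, against 6.86% and 6.35%. Of the lower calls in the last comparison, 12 were ER chaperones and folding enzymes.

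Of the ER chaperones and folding enzymes, the list closest to *Hspa5* in function, 19 of 20 were tested. Their median log2 fold change was -0.28 for EPR against mock, with 5 higher and 2 lower calls, and 0.60 for EPRSTOPE against mock, with 11 higher and 0 lower. EPR against EPRSTOPE had a median of -0.66 with 12 lower calls, and all 19 values were below 0. Of the 19, 10 lay below mock in EPR and above mock in EPRSTOPE cells, as *Hspa5* did, counted by sign with the mock libraries shared. None of these was called in both directions, with 0 genes called lower in EPR and higher in EPRSTOPE cells, and 5 of the 19 were called higher in both. Without mock library 205, EPR against mock called 3 of the list higher and 5 lower. *Creld2*, an ER stress-induced folding factor, was at 86.4 ± 6.0 CPM in mock, 71.1 ± 4.7 CPM in EPR and 204 ± 11 CPM in EPRSTOPE libraries, and EPR was lower than EPRSTOPE by -1.52 on the log2 scale (edgeR adjusted p = 4.5e-08). *Pdia4*, a disulfide isomerase, was at 284 ± 4, 215 ± 7 and 478 ± 28 CPM and differed by -1.15 (edgeR adjusted p = 4.5e-08), and *Sdf2l1*, a partner of BiP, at 39.3 ± 3.6, 28.0 ± 3.6 and 59.6 ± 2.4 CPM differed by -1.10 (edgeR adjusted p = 8.9e-06; SD, n = 3 for each group). *Dnajc3*, which encodes an ER chaperone, and *Dnajc10*, an ER disulfide reductase, rose in both cells, by 0.94 and 1.11 on the log2 scale in EPR and by 1.87 and 1.89 in EPRSTOPE cells. *Hspa13*, an ER-associated member of the HSP70 family, rose from 51.4 ± 2.2 CPM in mock to 103 ± 6 CPM in EPR and 105 ± 8 CPM in EPRSTOPE libraries. The other higher calls in EPR cells were *Ero1lb* (0.58), an oxidase for disulfide formation, and *P4hb* (0.53), a disulfide isomerase named after its values were seen. The call of *Ero1lb* was lost without mock library 204 (0.52, edgeR adjusted p = 0.015), mock library 205 (0.50, edgeR adjusted p = 0.017) or EPR library 207 (0.52, edgeR adjusted p = 0.012). That of *P4hb* was lost without mock library 205, where its value came under the fold limit, and with counts scaled from TPM (0.42, edgeR adjusted p = 0.098). *Manf*, a secreted ER stress protein, fell in EPR cells by 0.55, a call that was lost without EPR library 208 (-0.50), and *Ero1l*, a paralog of *Ero1lb*, fell by 0.67, a call ended by counts scaled from TPM (-0.37, edgeR adjusted p = 0.091). ERSE was found in 6 of the 17 promoter windows of this list, those of *Calr*, *Canx*, *Creld2*, *Dnajc3*, *Hsp90b1* and *Pdia6*.

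**Figure D3:**
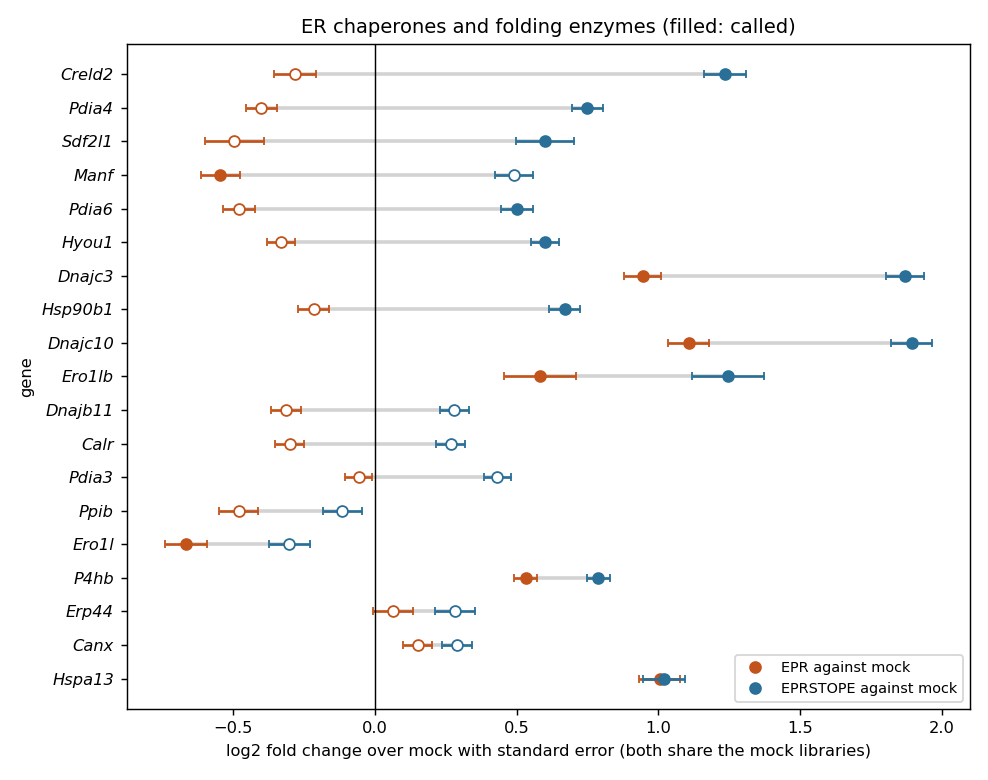
Log2 fold change over mock with its standard error (horizontal axis) for each of the 19 tested ER chaperones and folding enzymes in EPR and EPRSTOPE cells; filled points were called, grey bars join the pair of values and both share the mock libraries. Each EPRSTOPE point lies to the right of its EPR point, and Creld2 has the widest gap.

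Genes of ER-associated degradation and translocation (19 of 19 tested) are the group that *Herpud1* belongs to. Against mock, 8 of the 19 were called higher in EPR and 12 in EPRSTOPE cells, with 0 lower, where 15.2% and 15.6% of all tested genes were called higher. The medians were 0.43 and 0.53, and 8 genes were called higher in both. *Derl1*, which forms part of the retrotranslocation channel, went from 73.4 ± 5.6 CPM in mock to 156 ± 7 CPM in EPR and 172 ± 10 CPM in EPRSTOPE libraries (SD, n = 3). *Os9*, a lectin of the same machinery, had log2 fold changes of 0.95 and 1.18, and *Edem2*, which trims mannose from misfolded glycoproteins, of 1.28 and 1.12. *Wfs1*, an ER membrane protein, rose by 1.13 in EPRSTOPE cells, a call ended by counts scaled from TPM (edgeR adjusted p = 0.017). Counts scaled from TPM also brought the 12 higher calls in EPRSTOPE cells down to 7. *Sel1l*, the adaptor of the ubiquitin ligase complex, had 126 ± 2 CPM in mock, 93.5 ± 6.4 CPM in EPR and 193 ± 2 CPM in EPRSTOPE libraries, and EPR against EPRSTOPE gave -1.04 (edgeR adjusted p = 1.7e-07). *Syvn1*, the ligase itself, was higher in EPR than in EPRSTOPE cells by 0.57, a call lost without EPR library 207 (0.56, edgeR adjusted p = 0.011), EPR library 208 (0.53, edgeR adjusted p = 0.013) or EPRSTOPE library 209 (0.47), and ended by counts scaled from TPM (0.31). *Edem1*, a lectin that hands glycoproteins to degradation, was lower in EPR than in EPRSTOPE cells by -0.60, which counts scaled from TPM also ended (-0.28).

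Among the sensors and eIF2 kinases (8 of 8 tested), *Ern1*, *Atf6* and *Eif2ak2* were called higher in both cells and 0 were called between EPR and EPRSTOPE (edgeR). *Ern1*, which encodes IRE1, was at 29.7 ± 0.2 CPM in mock, 65.1 ± 2.1 CPM in EPR and 47.9 ± 1.8 CPM in EPRSTOPE libraries (SD, n = 3), log2 fold changes of 1.13 and 0.69. *Atf6* rose by 0.60 and 0.55, and *Eif2ak2*, the kinase PKR that senses double-stranded RNA, by 0.81 and 0.73. *Eif2ak4*, the kinase GCN2 that senses uncharged tRNA, was called lower in EPR cells (-0.53), and the call was lost without mock library 204 (-0.47) or EPR library 207 (-0.46) and with counts scaled from TPM (-0.39). EPRSTOPE cells had a value of -0.47 for it, which was not called.

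The ATF4-type genes of amino acid metabolism and feedback (27 of 28 tested) went both ways, with 7 higher and 6 lower calls in EPR, 9 higher and 4 lower calls in EPRSTOPE and 6 higher and 6 lower calls for EPR against EPRSTOPE. The medians were -0.045, 0.084 and -0.14, and the last 2 changed sign under some of the other settings. In the last comparison, counts scaled from TPM left 2 higher and 3 lower calls. *Ddit4*, an inhibitor of mTORC1, went from 9.87 ± 1.21 CPM in mock to 65.9 ± 3.3 CPM in EPR and 46.4 ± 2.2 CPM in EPRSTOPE libraries, and *Sesn2*, a leucine sensor that also inhibits mTORC1, from 9.06 ± 0.37 to 50.8 ± 5.0 and 32.9 ± 3.6 CPM (SD, n = 3). Both were higher in EPR than in EPRSTOPE cells, by 0.50 and 0.63 on the log2 scale (edgeR adjusted p = 0.00099 and 0.00064). Counts scaled from TPM ended both of these calls (0.49, edgeR adjusted p = 0.071, and 0.61, edgeR adjusted p = 0.047), and *Ddit4*, which is barely past the fold limit, also lost it with limma and voom (0.49) and without EPR library 207 (0.48), EPR library 208 (where it came just under the limit), EPRSTOPE library 209 (0.49) or EPRSTOPE library 211 (0.48). *Nupr1*, a stress-induced chromatin protein, rose in both cells but more in EPRSTOPE, from 13.8 ± 1.2 to 29.0 ± 2.7 and 55.5 ± 8.0 CPM, with EPR against EPRSTOPE at -0.94 (edgeR adjusted p = 8.5e-05). *Psat1* of serine synthesis was at 434 ± 14 CPM in mock and 420 ± 6 CPM in EPR but 164 ± 6 CPM in EPRSTOPE libraries, and EPR against EPRSTOPE gave 1.36 (edgeR adjusted p = 7.6e-09), the opposite direction to *Asns*. *Aldh18a1*, which makes the precursor of proline, fell from 115 ± 4 to 77.2 ± 4.2 and 45.0 ± 3.0 CPM and was higher in EPR than in EPRSTOPE cells by 0.78, while *Pycr1*, the last enzyme of proline synthesis, fell in EPR cells (-0.84) and had a value of -0.14 in EPRSTOPE cells. *Mthfd2* of the mitochondrial folate cycle fell in both cells, from 86.9 ± 4.6 to 40.6 ± 2.1 and 36.7 ± 3.2 CPM. The other lower call in EPRSTOPE cells was *Vldlr* (-0.61), a lipoprotein receptor named after its values were seen, and counts scaled from TPM ended it (-0.56, edgeR adjusted p = 0.045). *Slc7a5*, a carrier of large amino acids, fell in EPR cells from 144 ± 6 to 72.8 ± 1.4 CPM and had 114 ± 10 CPM in EPRSTOPE libraries, so that EPR was lower than EPRSTOPE by -0.64, a call that counts scaled from TPM ended (-0.79, edgeR adjusted p = 0.017). *Slc7a11*, the cystine carrier, rose in EPR cells from 33.0 ± 1.1 to 61.3 ± 3.5 CPM and was at 36.9 ± 4.7 CPM in EPRSTOPE libraries, a difference between both of 0.74 that counts scaled from TPM took out of the call (0.91, edgeR adjusted p = 0.020). *Gdf15* and *Atf5*, a stress cytokine and a stress-responsive transcription factor, were higher in EPRSTOPE cells, with log2 fold changes of EPR against EPRSTOPE of -1.14 and -1.003.

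The cytosolic aminoacyl-tRNA synthetases and the tRNA exporter (13 of 13 tested), which ATF4 is known to raise as a group, had medians of -0.33 and -0.37 against mock, with 1 lower call in EPR (*Gars*, -0.51) and 3 in EPRSTOPE cells (*Mars*, -0.71, *Aars*, -0.61, and *Iars*, -0.57), and 0 higher calls by edgeR. The call of *Gars* was lost with DESeq2, with its size factors, with a stricter filter, with a fit of the 6 compared libraries, with counts scaled from TPM, and without mock library 204 (-0.47) or EPR library 208 (-0.45), and that of *Aars* with counts scaled from TPM (-0.64, edgeR adjusted p = 0.015). Beside the 0 higher calls, DESeq2 and limma with voom called 0 as well. Against mock, 12 of the 13 values were below 0 in EPR and 11 in EPRSTOPE cells. The CARE core was found in 5 of the 8 windows available for this list, those of *Aars*, *Gars*, *Iars*, *Tars* and *Yars*. In the list of ATF4-type amino acid and feedback genes it was found in 5 of 28 windows (17.9%). *Wars*, whose level was 71.6 ± 4.3 CPM in mock, 56.9 ± 3.4 CPM in EPR and 99.1 ± 2.5 CPM in EPRSTOPE libraries (SD, n = 3), had the highest value of the list against mock in EPRSTOPE cells (0.47, not called) and differed between the overexpressing cells by -0.80 (edgeR adjusted p = 3.6e-06).

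Cell death genes linked to CHOP (5 of 5 tested) were called higher 3 times in EPR and 2 times in EPRSTOPE cells, while *Ddit3* itself had values of -0.50 and -0.31 and was not called. *Tnfrsf10b*, a death receptor, rose from 13.9 ± 0.7 CPM in mock to 55.5 ± 1.9 CPM in EPR and 57.2 ± 5.5 CPM in EPRSTOPE libraries. *Pmaip1*, which encodes NOXA, rose from 14.1 ± 3.4 to 43.2 ± 5.2 and 26.5 ± 3.4 CPM, and *Bbc3*, which encodes PUMA, from 3.52 ± 0.52 to 11.7 ± 2.0 CPM in EPR, with 5.86 ± 0.29 CPM in EPRSTOPE libraries (SD, n = 3). All 3 are also known targets of p53, and the part of CHOP or p53 in these values was not tested. Both BH3-only genes were called higher in EPR than in EPRSTOPE cells, but *Pmaip1* lost this call without EPR library 207 (0.66), EPR library 208 (0.67), EPRSTOPE library 210 (0.61) or EPRSTOPE library 211 (0.73), and *Bbc3* without EPR library 207 (0.87). Counts scaled from TPM ended both (0.70 and 0.63). Of 4 tested substrates of IRE1-dependent mRNA decay (5 listed), EPR against mock called 0 by edgeR and EPRSTOPE against mock called *Hgsnat* higher (0.74, ended by counts scaled from TPM) and *Scara3* lower, a gene named after its values were seen that had 1.41 ± 0.42 CPM in mock and 0.148 ± 0.128 CPM in EPRSTOPE libraries (SD, n = 3), near the level of 3 counts. The call of *Scara3* was lost without mock library 205 (-2.87, edgeR adjusted p = 0.010), and the stricter filter on counts left the gene out.

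Heat shock genes of the cytosol (12 of 12 tested), which answer to unfolded protein outside the ER, were listed for comparison. EPR against mock called 1 higher and 5 lower, EPRSTOPE against mock 1 higher and 2 lower and EPR against EPRSTOPE 1 higher and 0 lower, with a median of -0.055 in the last, beside -0.66 for the ER chaperones. The 5 lower calls in EPR cells became 3 with DESeq2 or the stricter filter and 2 with counts scaled from TPM. *Hspb1*, a small heat shock protein, fell from 144 ± 13 CPM in mock to 43.4 ± 1.6 CPM in EPR and 53.2 ± 1.8 CPM in EPRSTOPE libraries, and *Hspb8*, which acts in chaperone-assisted autophagy, rose from 4.32 ± 0.49 to 36.9 ± 0.5 and 35.3 ± 1.4 CPM (SD, n = 3). *Hsp90aa1* and *Dnajb1*, which HSF1 raises in heat shock, fell in EPR cells by 0.64 and 0.58, calls that counts scaled from TPM ended (-0.81 and -0.33), the latter also lost without EPR library 208 (-0.50). The remaining lower calls, named after their values were seen, were *Hsph1* in EPR (-0.51) and *Hspa1a* in both cells, with 7.03 ± 2.72 CPM in mock, 0.753 ± 0.652 CPM in EPR and 0 in all EPRSTOPE libraries, but *Hspa1a* shares nearly all its sequence with *Hspa1b* and the split between them is uncertain. *Hsph1* lost its call with DESeq2, with its size factors, with the stricter filter, with a fit of the 6 compared libraries, and without mock library 203 (-0.48) or EPR library 208 (-0.42). *Hspa1a* lost that in EPR cells with DESeq2 (adjusted p = 0.040), with counts scaled from TPM (edgeR adjusted p = 0.021) and without mock library 204 (edgeR adjusted p = 0.013) or mock library 205 (edgeR adjusted p = 0.014), and was left out by the stricter filter. *Hspa4l*, a relative of HSP110, was the 1 gene higher in EPR than in EPRSTOPE cells (0.85), a call that counts scaled from TPM ended (0.51).

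**Figure D4:**
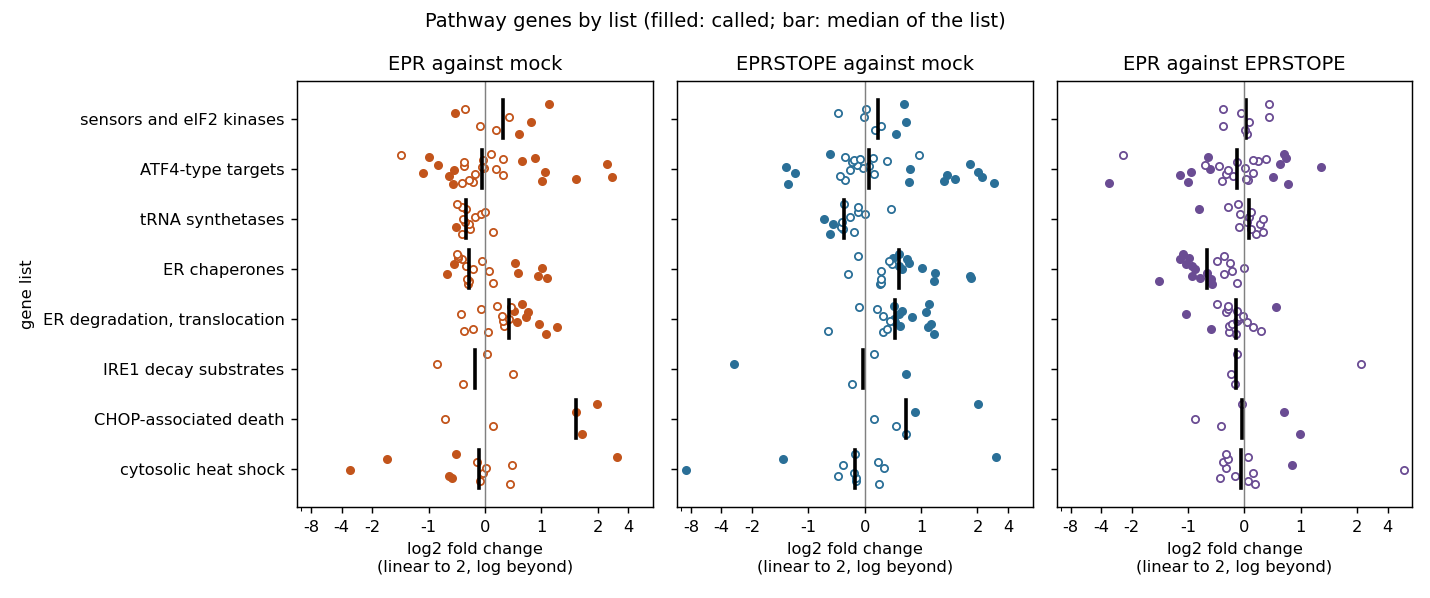
Log2 fold change of every tested gene in the 7 pathway lists and the cytosolic heat shock list (horizontal axis, linear to 2 and logarithmic beyond) in the 3 comparisons; filled points were called and the bar is the median of the list. In the right panel the ER chaperones lie to the left of 0, with a median of -0.66, while the other lists have medians between -0.15 and 0.084. The outermost point of the lowest row is Hspa1a, at 0 CPM in EPRSTOPE libraries, whose fitted value depends on the small count added in the fit.

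For one gene of each arm, the genes most like it over the 9 libraries were looked up by Pearson correlation of log2(CPM + 0.5), among genes that averaged 10 CPM or more. The points share libraries and group differences, so r is a description. *Hspa5* was most like *Pdia4* (r = 0.995), *Mrps17* (0.995) and *Map4k3* (0.994), all 3 lowest in EPR and highest in EPRSTOPE libraries. *Ddit3* was most like *Rabepk* (r = 0.919), *Map1lc3a* (0.910) and *Sarnp* (0.905), all highest in mock libraries.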

How the data were processed

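The 9 RNA-Seq libraries of NMuMG cells (3 mock, 3 EPR, 3 EPRSTOPE) were grouped by their genotype labels and named by the numbers 203 to 211 of their titles. Per the labels and the methods, the authors ran kallisto 0.43.1 on Gencode vM15 transcripts (GRCm38.p5 in the submitters' processing notes). The deposited tables give each transcript an estimated count, not normalized, and a TPM, which the authors' tool scaled by effective length and library. The strand setting is not given in the sources used here, and the labels and the methods name different instruments. For the present work the estimated counts of all transcripts with 1 gene symbol were added up and rounded. A filter of 1 CPM in 3 or more libraries left 15370 genes, to which edgeR 4.0.16 in R 4.3.3 was applied (TMM, quasi-likelihood test, 1 factor of 3 levels over all 9 libraries, Benjamini-Hochberg adjustment), after a check on simulated counts. Standard errors were taken from the F statistic, and intervals are 95%. The alternatives were DESeq2 1.42.0, limma 3.58.1 with voom, the size factors of DESeq2, no filter, a minimum of 10 counts in each library, counts scaled from TPM by length, a fit of the 6 compared libraries, an adjusted p under 0.05 without fold limit, and fits that left out each library. All 10 stress response genes are named. From each list, the called genes of largest fold change with 10 CPM or more in the higher group are named, up to 3 per direction and comparison, and others where stated. The genes and lists were chosen with earlier results of these data known. Positions came from Gencode M21 (GRCm38) and promoters from RefSeq (GRCm38.p6), where 10 of 10 genes matched. Depth was 5972457 to 11876435 estimated counts per library, which limits the precision of genes at a few CPM. Replicate pairs differed by more than sampling noise (chi-square per degree of freedom 5.17 to 11.3), and all 9 were counted as samples. This spread cannot show whether the libraries of a group came from separate cultures or pools. Other steps used Python 3.11.15 with pandas 2.3.3, scipy 1.17.1, numpy 2.4.6 and matplotlib 3.10.9.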

Additional observations from a re-analysis of the deposited data

Results flagged for a closer look

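EPR and EPRSTOPE cells differed, by edgeR's test of the difference itself, in 2 of the 10 stress response genes and 31 genes of the 8 lists. In this comparison 13.2% of all tested genes were called, and 2 of 10 is not read as a result about the group. Of the 31 list genes, the 23 named by the rule are given here. Each value is the log2 fold change of EPR against EPRSTOPE, with edgeR's adjusted p under 0.01. Of the 10 genes, *Hspa5* (-1.18) and *Asns* (-0.56) were lower in EPR cells. Among ER chaperones and degradation genes, *Creld2* (-1.52), *Pdia4* (-1.15), *Sdf2l1* (-1.10), *Sel1l* (-1.04), *Manf* (-1.04), *Dnajc3* (-0.93), *Dnajc10* (-0.79), *Ero1lb* (-0.66) and *Edem1* (-0.60) were lower and *Syvn1* (0.57) was higher. Among ATF4-type genes and tRNA synthetases, *Gdf15* (-1.14), *Atf5* (-1.003), *Nupr1* (-0.94), *Wars* (-0.80) and *Slc7a5* (-0.64) were lower, and *Psat1* (1.36), *Aldh18a1* (0.78), *Slc7a11* (0.74), *Sesn2* (0.63) and *Ddit4* (0.50) were higher. *Bbc3* (0.99) and *Pmaip1* (0.71) of the cell death genes and *Hspa4l* (0.85) of the cytosolic heat shock genes were higher too. Counts scaled from TPM ended the calls of *Asns*, *Ero1lb*, *Edem1*, *Syvn1*, *Slc7a5*, *Slc7a11*, *Sesn2*, *Ddit4*, *Bbc3*, *Pmaip1* and *Hspa4l*. EPR RNA was at 24.9 ± 1.9 CPM in EPR and 4.24 ± 0.48 CPM in EPRSTOPE libraries (SD, n = 3). Its part in these differences cannot be told apart from that of the peptide or of differences between transfected pools. Groups of 3 libraries are too small to look for single libraries that stand apart.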

How the results depend on the processing

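Of 420 member fold changes recomputed, 4 reversed in fits that left out a library and 5 under the other settings. Of 210 recomputed counts of calls, 8 and 16 were marked as moved by a set ratio. Calls of single genes were not scored in this tally, and several were lost, as given above. With an adjusted p under 0.05 and no fold limit, EPR against mock called 4 of the 10 genes higher and 5 lower, 35 pathway genes lower and 7478 genes in all; EPRSTOPE against mock called 21 pathway genes lower and 7442 in all; EPR against EPRSTOPE called 3 of the 10 genes higher, 18 pathway genes higher and 41 lower, and 4637 in all. Counts scaled from TPM called 1 of the 10 genes higher and 0 lower in EPR against mock, 1 lower in EPRSTOPE against mock, and in EPR against EPRSTOPE 1 lower, 2 pathway genes higher and 940 genes in all; the cause was not tested. They reversed *Atf3* (EPR against mock -0.099, EPRSTOPE against mock -0.45), *Asns* (EPRSTOPE against mock 0.043) and *Xbp1* (EPRSTOPE against mock 0.0084), and limma with voom reversed *Atf3* (EPRSTOPE against mock -0.026). None of these values was called. Leaving out single libraries gave 1 to 2 of the 10 genes higher and 1 to 2 lower in EPR against mock, and 5 to 10 pathway genes higher in EPR against EPRSTOPE, 5 without EPR library 207. It reversed EPRSTOPE against mock for *Atf3* (range -0.12 to 0.19), to -0.028 without mock library 204 and -0.12 without EPRSTOPE library 209, and for *Xbp1* (range -0.081 to 0.037), to 0.013 and 0.037 without the same libraries. No scaling moved the median of all genes by over 0.1. No paired analysis was possible because the library numbers are not shared between groups. Depth limits the genes near 3 counts per library (0.253 to 0.502 CPM), and *Chac1*, *Trib3* and *Dnajb9*, at 4.40 to 20.1 CPM, are the least precise of the 10 genes.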
